A study of Caenorhabditis elegans with 8 samples.

Results

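The UDP-glucuronosyltransferase genes of Caenorhabditis elegans were followed through 16 RNA libraries of whole worms at the fourth larval stage, L4.
The members were all transcripts in the deposited count tables whose gene symbol begins with ugt-, which gave 54 of 14396 listed transcripts, 1 for each of 54 genes.
The choice used the symbol and no measured value, though earlier results of these data were known when it was made.
Worms of the Bristol strain, with the genotype labelled damt-1 or labelled wild type, were raised at 22 °C on agar carrying 1.92 µM antimycin A or none.
The 8 groups of 2 libraries were damt-1 P0, damt-1 F1 and damt-1 F2 and wild type P0, wild type F1 and wild type F2, all treated, and damt-1 untreated and wild type untreated.
P0, F1 and F2 are names of generations in the labels, which do not say whether the parents of F1 and F2 worms were exposed.
The growth notes start the exposure at the egg and the design text starts it at the first larval stage, L1.
The labels name no damt-1 allele, and nothing in them says whether the allele should lower its RNA.
Levels are CPM, counts divided by the scaled total of their library.
The damt-1 transcript had 21.9 and 17.0 CPM in damt-1 untreated worms, against 19.9 and 19.6 CPM in wild type untreated worms (log2 difference -0.03 ± 0.19, adjusted p = 0.93), so its level did not tell the untreated genotypes apart.
In P0 the same transcript was lower in damt-1 worms, at 17.98 and 16.4 CPM, against 28.2 and 23.7 CPM in wild type worms (log2 -0.59 ± 0.18, adjusted p = 0.015).
In F1 it was lower too (log2 -0.77 ± 0.18, adjusted p = 9.0e-04), and in F2 the difference did not pass (log2 -0.39 ± 0.17, adjusted p = 0.062).
Under antimycin A it rose in wild type F1 (log2 0.67 ± 0.17, adjusted p = 0.0024) and F2 (log2 0.61 ± 0.17, adjusted p = 0.0057), and no other treated comparison passed for it.

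UDP-glucuronosyltransferases sit in the membrane of the endoplasmic reticulum and join a sugar from a UDP-sugar donor to small, fat-soluble molecules.
The product dissolves better in water and can be pumped out of the cell, which makes the family a classical part of the second phase of detoxification in animals.
The nematode family is large, many of its genes are active in the intestine, and worms are known to make glucose conjugates of foreign compounds.
For most members the substrate is not known from work in worms, so the members are described here by their transcripts alone.
Antimycin A stops electron flow through complex III in mitochondria, and damt-1 has been linked in C. elegans to the methylation of adenine in DNA.

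Library totals ran from 3541390 to 4365451 counts over all listed transcripts.
A transcript was tested where it reached the count minimum of the filter and was listed in the tables compared, and 52 of the 54 members passed the filter.
The genes ugt-15 and ugt-27 did not.
No damt-1 table and no wild type P0 table listed ugt-18, and the damt-1 F1 table did not list ugt-3, so 50 to 52 members were tested in each comparison.
A difference is given as log2 of the group named first over the group named second, ± its standard error, with the Benjamini-Hochberg adjusted p of edgeR's quasi-likelihood test.
"Rose" and "fell" mean an adjusted p under 0.05.
Each group has 2 libraries, and nothing in the labels says that they came from separate cultures, so the p-values measure the spread between these libraries, which may be technical (biological coefficient of variation 2.18%).
A two-sided exact permutation test of 2 libraries against 2 cannot go below 0.333, so none was used.
In the mean over libraries the 99th percentile of all transcripts was 1.39 counts per nucleotide of spliced length and the highest 5.12, and ugt-62 reached 1.70 in 1 library; what this narrow range at the top does to the folds of high members was not tested.

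Per kilobase of spliced length, taken over all annotated exons of the gene, ugt-62 stood highest of the listed members over the 8 groups. It was followed by ugt-47, ugt-61, ugt-12 and ugt-6.
Transcripts of ugt-62 had 388, 394 and 404 CPM per kilobase in damt-1 P0, F1 and F2, against 239 in damt-1 untreated worms.
In wild type they had 393, 396 and 413 CPM per kilobase in P0, F1 and F2, against 216 untreated.
The order beneath ugt-62 depended on the group.
For ugt-61 the level was 318 to 331 CPM per kilobase in treated damt-1 worms, against 49.2 in untreated ones, and 126 to 183 in treated wild type worms, against 25.6 in untreated ones.
For ugt-1 it was 299.6 to 308 CPM per kilobase in treated damt-1 worms, against 25.6 in untreated ones, and all wild type groups lay between 61.4 and 67.6.
The highest member in wild type untreated worms was ugt-47, at 254 CPM per kilobase, and it stayed between 155 and 166 in the damt-1 groups.
A library held 14 to 19 members at 100 CPM or more and 10 to 17 listed members under 10 CPM, and its 5 highest members made up 35.6% to 42.2% of the family's counts.

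**Figure D1:**
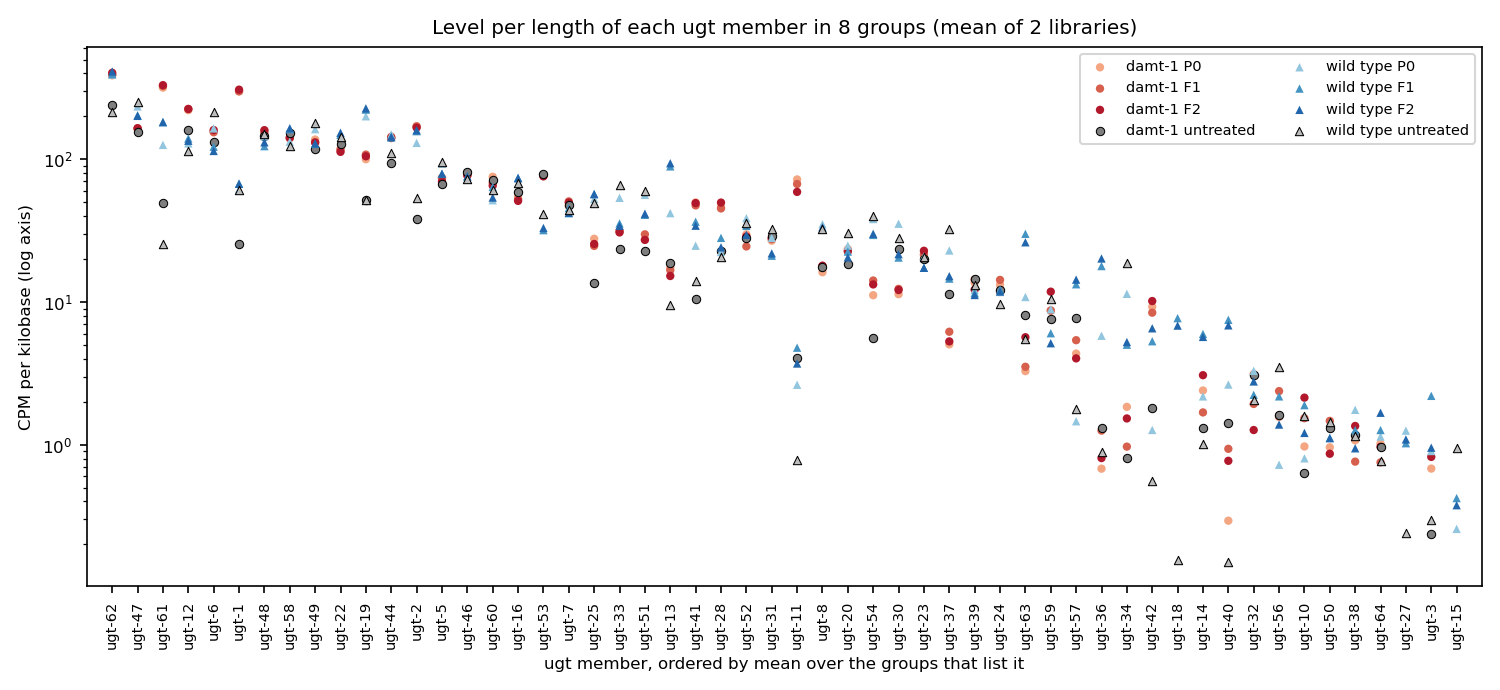
Levels of the 54 ugt- members per length: the axis of members runs in order of mean level, and the other, logarithmic, axis gives CPM per kilobase of spliced length (all annotated exons of the gene), with 1 point per group (mean of 2 libraries; circles damt-1, triangles wild type). The order is led by ugt-62, and for ugt-61 and ugt-1 the treated and untreated damt-1 points lie far apart.

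Summed over the listed members, the family had 6001 and 5977 CPM in damt-1 P0, 6028 and 5982 CPM in damt-1 F1 and 5934 and 6090.2 CPM in damt-1 F2, against 3973 and 3961 CPM in damt-1 untreated worms.
The wild type sums were 5576 and 5478 CPM in P0, 5595 and 5612 CPM in F1 and 5605 and 5647 CPM in F2, against 4671 and 4621 CPM in untreated worms.
Every treated library was above both untreated libraries of its genotype.
The treated damt-1 sums were above the treated wild type ones, and the untreated damt-1 sums were below the untreated wild type ones.
These sums hold members that rose and members that fell.

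Under antimycin A more members rose than fell in the damt-1 generations and in wild type P0 and F1, while in wild type F2 the counts were close.
In damt-1 P0, 15 of 51 tested members rose and 6 fell, where 8.41% of all tested transcripts were higher and 5.68% lower.
In damt-1 F1, 17 of 50 tested members rose and 3 fell, beside 7.69% higher and 5.53% lower among all transcripts.
In damt-1 F2, 16 of 51 tested members rose and 5 fell, beside 7.9% higher and 5.84% lower of all.
The share of members that rose in damt-1 worms, 29.4% in P0, 34% in F1 and 31.4% in F2, was several times the share among all transcripts, and the share that fell in F1, 6%, was near it.
In wild type P0, 12 of 51 tested members rose and 7 fell, beside 13% higher and 8.14% lower of all.
In wild type F1, 20 of 52 tested members rose and 15 fell, beside 26.2% and 20.7%.
In wild type F2, 17 of 52 tested members rose and 16 fell, beside 25.9% and 21%.
The order of the wild type F2 counts depended on the settings, with 16 risen and 20 fallen with scaling factors from thinly covered transcripts, 17 and 18 with only the groups compared and 17 and 17 with library size only. The wild type F1 counts were close too with the factors from thinly covered transcripts, at 18 risen and 17 fallen.
DESeq2 called 14 risen and 3 fallen members in damt-1 P0, 14 and 3 in damt-1 F1 and 14 and 2 in damt-1 F2, and 11 and 2 in wild type P0, 19 and 13 in wild type F1 and 17 and 13 in wild type F2.
The 3 generations of a genotype were compared with the same untreated libraries, so their counts are not independent of each other.

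Without regard to direction, the median size of the log2 difference, tested members against all tested transcripts, was 0.35 against 0.17 in damt-1 P0, 0.34 against 0.17 in F1 and 0.49 against 0.17 in F2.
In wild type worms it was 0.28 against 0.20 in P0, 0.45 against 0.35 in F1 and 0.46 against 0.35 in F2.
With direction, the median log2 difference of the tested members was 0.12 in damt-1 P0, 0.15 in damt-1 F1 and 0.15 in damt-1 F2.
It was 0.10 in wild type P0, 0.12 in wild type F1 and 0.08 in wild type F2, and over all tested transcripts these medians lay within 0.03 of 0.
Rises of at least 2-fold were called for 8, 8 and 9 members in damt-1 P0, F1 and F2, beside 3.3%, 3.06% and 3.18% of all transcripts.
In wild type P0, F1 and F2 they were called for 7, 14 and 13 members, beside 3.11%, 8.64% and 8.56% of all.
Leaving out any 1 library of the 4 compared kept 14 of the 15, 14 of the 17 and 14 of the 16 rises in damt-1 P0, F1 and F2, but 1 fall in each of these comparisons, that of ugt-30.
For wild type it kept 8 of 12, 17 of 20 and 16 of 17 rises in P0, F1 and F2, and 1 of 7, 10 of 15 and 11 of 16 falls.
The wild type P0 count of 19 members called was 12 without P0 replicate 1, and between 12 and 14 over the 4 libraries left out.

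Marker genes of tissues were read beside these counts, because in whole worms fewer cells of a type and less RNA per cell cannot be told apart.
The 10 listed of 11 intestine markers summed to 3629 to 3962 CPM in treated damt-1 worms, against 3605 to 3709 CPM untreated, and to 3232 to 3575 CPM in treated wild type worms, against 3270.1 to 3477 CPM untreated, with none at 0.
Of these 10, 1, 2 and 1 rose and 0 fell in damt-1 P0, F1 and F2, and 3 rose each time and 1, 4 and 2 fell in wild type P0, F1 and F2.
The 5 listed of 6 germ line markers had 529 to 588 CPM in treated damt-1 worms, against 719.7 to 723 CPM untreated, and 1119 to 1333 CPM in treated wild type worms, against 826 to 850.0 CPM untreated.
Of those germ line markers 3 of 5 fell in each damt-1 generation and 5 of 5 rose in each wild type generation, none of them at 0 in any group.
The 6 furrow collagens, whose transcripts cycle with the larval molts, summed to 1361 to 1483 CPM in treated damt-1 worms, against 1601 to 1662 CPM untreated, and to 613 to 1039 CPM in treated wild type worms, against 362 to 366 CPM untreated.
Of these collagens 4, 3 and 4 of 6 fell in damt-1 P0, F1 and F2, and 5, 6 and 6 of 6 rose in wild type P0, F1 and F2.
The 5 pharynx markers had 353 to 386 CPM in treated damt-1 worms, against 253 to 263 CPM untreated, and 411 to 628 CPM in treated wild type worms, against 340.2 to 386 CPM untreated.
Of the 5 pharynx markers 2 rose and 0 fell in each damt-1 generation, and 2, 3 and 3 rose and 0, 0 and 1 fell in wild type P0, F1 and F2.
The 6 adult cuticle genes summed to 2150 to 2340 CPM in treated damt-1 worms, against 2071 to 2148 CPM untreated. In wild type worms they summed to 1695 to 1918 CPM treated, against 1835 to 1957 CPM untreated. Of these 6 genes 3, 4 and 4 rose and 1, 1 and 0 fell in damt-1 P0, F1 and F2, while 2, 1 and 1 rose and 1, 5 and 5 fell in wild type P0, F1 and F2.
One of them, the adult collagen col-19, had 129 to 137 CPM in treated damt-1 worms, against 0.507 to 0.539 CPM untreated, where it held 2 counts in each library.
In wild type worms col-19 had 86.8 to 171 CPM treated, against 234.5 to 247 CPM untreated.
The collagens col-62 and col-7 had 13 to 30.2 and 12.6 to 19.5 CPM in treated damt-1 worms, against 0 and 1 counts over both untreated damt-1 libraries.
In col-19 the untreated damt-1 libraries stood apart from all other libraries, and all damt-1 differences over untreated worms rest on them.
The levels of col-62 and col-7 were low in wild type F1 and F2 too, at 0.247 to 1.36 and 0 to 0.744 CPM.
Of the 4 listed of 5 body wall muscle markers 0 were called in a damt-1 generation and at most 1 in a wild type one. Of the 5 listed of 6 hypodermis markers 2 fell in each damt-1 generation, and 2 rose in each wild type one with 1 fallen in F1 and F2. Of the 3 listed of 6 neuron markers 1 rose in damt-1 P0, and 1, 2 and 2 fell in wild type P0, F1 and F2.
The shares of all transcripts called in these comparisons are those given above with the member counts. These markers thus differed between the same groups as the members described here, and their part in the results was not tested.

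The test called a rise in each of the 6 treated comparisons for 8 members: ugt-2, ugt-11, ugt-12, ugt-19, ugt-41, ugt-44, ugt-61 and ugt-62.
For each of them all 6 treated libraries of a genotype lay above both of its untreated libraries, which the 3 generations share.
In P0 these 8 were 53.3% of the rises in damt-1 worms and 66.7% of those in wild type worms. The matching shares over all transcripts were not counted, so neither the 8 nor these percentages are read as a trait of the family.
One of them, ugt-61, is known from C. elegans to be switched on by mitochondrial dysfunction through the nuclear hormone receptor NHR-45.
Transcripts of ugt-61 had 555 and 567 CPM in P0, 587 and 566 in F1, 554 and 613 in F2, against 87.1 and 86.2 untreated in damt-1 worms.
Wild type ugt-61 levels were 231 and 214 CPM in P0, 318 and 324 in F1, 309.9 and 334 in F2, against 44.3 and 45.8 untreated.
Treated libraries were several times above the untreated ones in both genotypes.
The log2 differences were 2.69 ± 0.06 in P0, 2.73 ± 0.06 in F1 and 2.75 ± 0.06 in F2 in damt-1 worms (adjusted p at most 4.5e-20), and 2.30 ± 0.08 in P0, 2.83 ± 0.07 in F1 and 2.84 ± 0.08 in F2 in wild type worms (adjusted p at most 3.7e-16).
In damt-1 against wild type worms ugt-61 was higher untreated (0.94 ± 0.10, adjusted p = 4.1e-08) and in P0 (1.33 ± 0.05, adjusted p = 4.6e-16).

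The member with the highest level per length, ugt-62, had 641 and 671 CPM in P0, 684 and 648 in F1, 643 and 724 in F2, against 414 and 394 untreated in damt-1 worms.
Wild type ugt-62 levels were 681 and 649 CPM in P0, 689 and 649.8 in F1, 689.9 and 707 in F2, against 365 and 365 untreated.
Treated libraries of both genotypes lay in the same range, from 641 to 724 CPM, above all untreated ones.
The rises were 0.70 ± 0.05 in P0, 0.72 ± 0.05 in F1 and 0.76 ± 0.05 in F2 in damt-1 worms and 0.86 ± 0.05 in P0, 0.87 ± 0.05 in F1 and 0.94 ± 0.05 in F2 in wild type worms on the log2 scale, with adjusted p at most 1.5e-10 in damt-1 and 5.6e-12 in wild type worms.
Transcripts of ugt-2 had 287 and 291 CPM in P0, 289.9 and 286 in F1, 282 and 282 in F2, against 64.5 and 65.4 untreated in damt-1 worms.
Wild type ugt-2 levels were 223 and 218 CPM in P0, 259.9 and 273 in F1, 267 and 274 in F2, against 86.8 and 93.7 untreated.
For ugt-2 no treated library overlapped the untreated ones of its genotype.
Its rise was larger in damt-1 worms, 2.15 ± 0.06 in P0, 2.15 ± 0.06 in F1 and 2.12 ± 0.06 in F2, than in wild type worms, 1.29 ± 0.05 in P0, 1.56 ± 0.05 in F1 and 1.58 ± 0.05 in F2, and the difference between these rises passed the test in each generation (adjusted p at most 1.1e-05).

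The order of the genotypes was the other way round for ugt-19.
Transcripts of ugt-19 had 164 and 175 CPM in P0, 189.7 and 176 in F1, 179 and 177 in F2, against 91.4 and 84.9 untreated in damt-1 worms.
Wild type ugt-19 levels were 356 and 322 CPM in P0, 378 and 376 in F1, 379 and 392 in F2, against 91.3 and 84.5 untreated.
Untreated libraries of the genotypes lay close together (damt-1 over wild type 0.01 ± 0.08, adjusted p = 0.96), and every treated wild type library was above every treated damt-1 library.
The rise was 0.94 ± 0.07 in P0, 1.05 ± 0.07 in F1 and 1.01 ± 0.07 in F2 in damt-1 worms and 1.95 ± 0.06 in P0, 2.11 ± 0.06 in F1 and 2.14 ± 0.06 in F2 in wild type worms, with a damt-1 F1 to wild type F1 ratio of 0.484.
Transcripts of ugt-41 had 97.9 and 80.9 CPM in P0, 87.3 and 83.3 in F1, 84.9 and 92.2 in F2, against 14.8 and 22.8 untreated in damt-1 worms.
Wild type ugt-41 levels were 44.0 and 45.1 CPM in P0, 61.1 and 70.0 in F1, 61.4 and 61.5 in F2, against 23.6 and 27.1 untreated.
All treated libraries of ugt-41 were above the untreated ones in each genotype.
They rose by 2.24 ± 0.14 in P0, 2.17 ± 0.14 in F1 and 2.22 ± 0.14 in F2 in damt-1 worms and by 0.81 ± 0.15 in P0, 1.37 ± 0.13 in F1 and 1.27 ± 0.14 in F2 in wild type worms.

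A low transcript, ugt-11, rose steeply in damt-1 worms.
Transcripts of ugt-11 had 135 and 121 CPM in P0, 115 and 122 in F1, 109 and 100.2 in F2, against 8.90 and 5.32 untreated in damt-1 worms.
Wild type ugt-11 levels were 5.69 and 3.60 CPM in P0, 6.93 and 9.97 in F1, 9.86 and 3.23 in F2, against 1.84 and 0.944 untreated.
All wild type libraries stayed under 10 CPM.
The log2 differences were 4.17 ± 0.19 in P0, 4.07 ± 0.20 in F1 and 3.88 ± 0.20 in F2 in damt-1 worms (adjusted p at most 3.5e-13) and 1.73 ± 0.59 in P0, 2.61 ± 0.50 in F1 and 2.24 ± 0.54 in F2 in wild type worms.
The wild type P0 call of ugt-11 (adjusted p = 0.039) was lost without P0 replicate 1 (adjusted p = 0.25), untreated replicate 1 (0.065) or untreated replicate 2 (0.24), and the wild type F2 call without F2 replicate 1 (adjusted p = 0.13).
One of the 5 highest members per length, ugt-12, had 376 and 374 CPM in P0, 396 and 368 in F1, 369 and 396 in F2, against 269 and 272 untreated in damt-1 worms.
Wild type ugt-12 levels were 222 and 217 CPM in P0, 241 and 234 in F1, 225 and 232 in F2, against 190.1 and 195 untreated.
Treated libraries lay above untreated ones in both genotypes.
These were rises of 0.47 ± 0.04 in P0, 0.50 ± 0.04 in F1 and 0.50 ± 0.04 in F2 in damt-1 worms and 0.19 ± 0.05 in P0, 0.30 ± 0.05 in F1 and 0.25 ± 0.05 in F2 in wild type worms, and the wild type P0 call was lost without P0 replicate 1 (adjusted p = 0.084) or untreated replicate 1 (0.089).

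In damt-1 worms ugt-44 had treated libraries at 252 to 264 CPM, against 182 and 159.9 CPM untreated, rises of 0.59 ± 0.05 in P0, 0.62 ± 0.05 in F1 and 0.59 ± 0.05 in F2.
In wild type worms ugt-44 had treated libraries at 257 to 274 CPM, against 202 and 205 CPM untreated, rises of 0.42 ± 0.05 in P0, 0.35 ± 0.05 in F1 and 0.37 ± 0.05 in F2.
Besides these 8, ugt-42 rose in all 3 damt-1 generations and in wild type F1 and F2.
Transcripts of ugt-42 had 15.2 and 17.0 CPM in P0, 17.0 and 12.3 in F1, 19.1 and 16.2 in F2, against 3.24 and 3.04 untreated in damt-1 worms.
Wild type ugt-42 levels were 1.29 and 3.12 CPM in P0, 6.68 and 11.8 in F1, 12.3 and 10.4 in F2, against 0.525 and 1.42 untreated.
Wild type P0 and untreated libraries overlapped for ugt-42, and the wild type P0 difference of 1.15 ± 0.64 did not pass (adjusted p = 0.23).
It rose by 2.35 ± 0.36 in P0, 2.21 ± 0.36 in F1 and 2.49 ± 0.35 in F2 in damt-1 worms, and by 3.19 ± 0.48 in wild type F1 and 3.48 ± 0.46 in wild type F2.

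**Figure D2:**
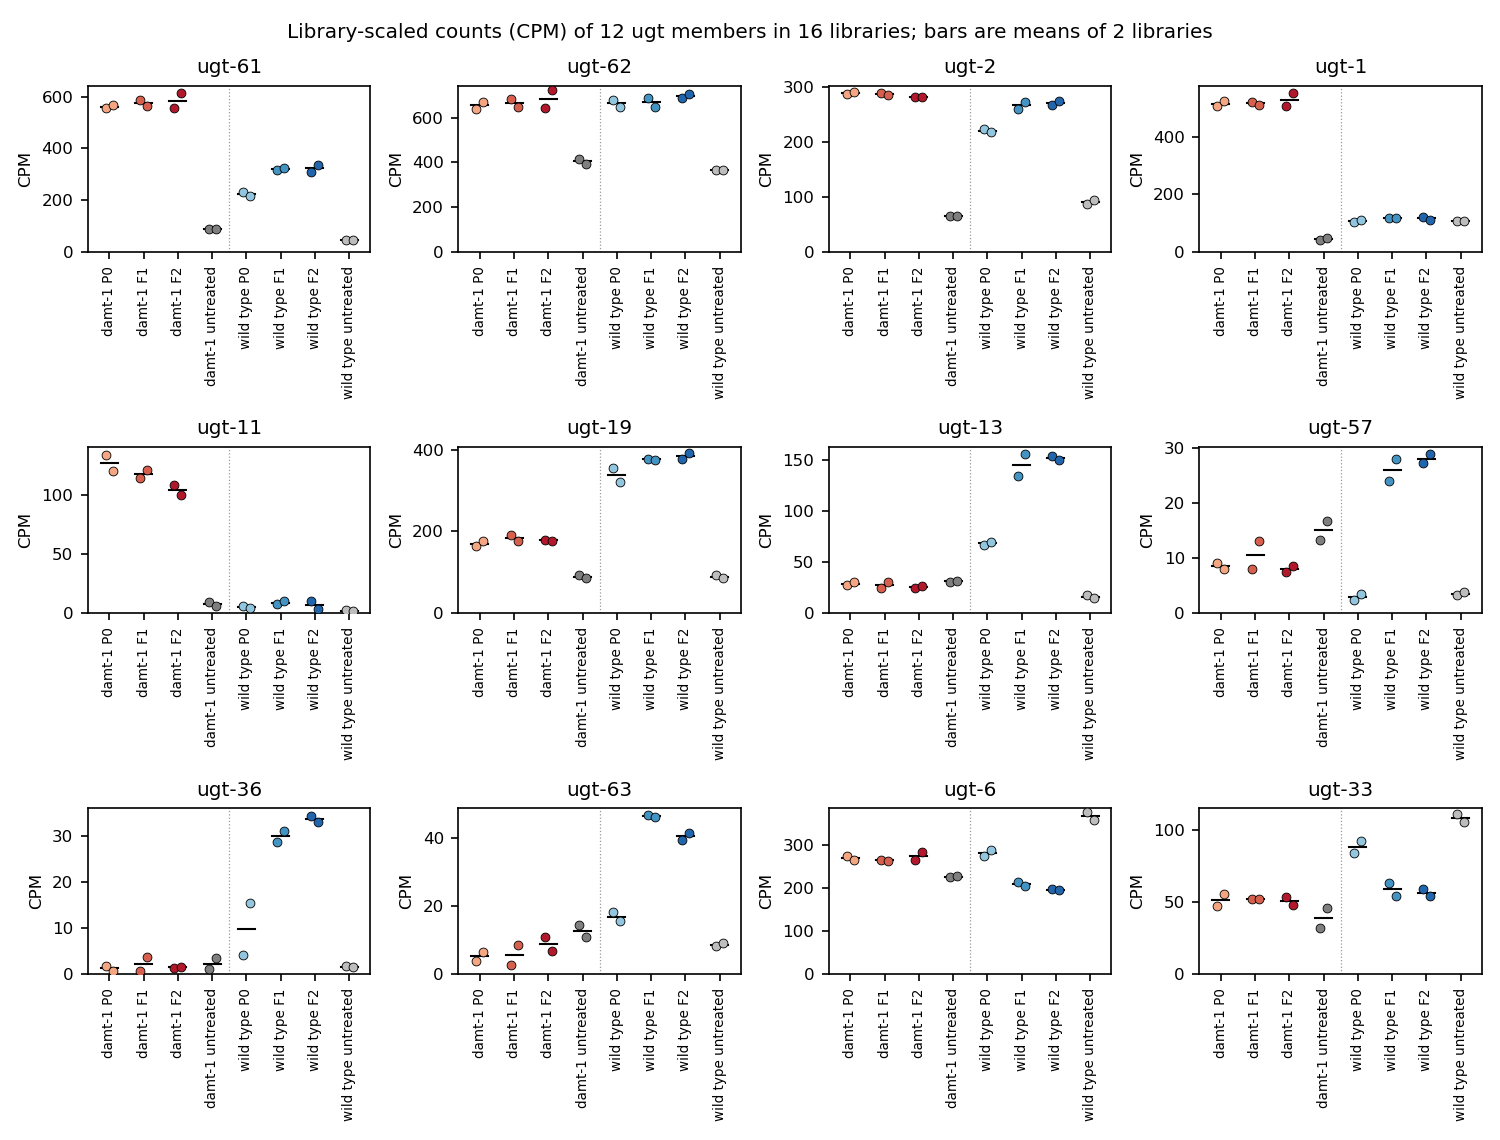
CPM of 12 members in each of the 16 libraries (linear axes from 0, a scale per member; damt-1 P0, F1, F2 and untreated, then wild type P0, F1, F2 and untreated; 1 point per library, bar at the mean of 2). Treated libraries of both genotypes are higher for ugt-61 and ugt-62, treated damt-1 libraries for ugt-1, and treated wild type libraries for ugt-13 and ugt-36.

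The rise of ugt-1 passed the test in damt-1 worms and not in wild type worms.
Transcripts of ugt-1 had 509 and 527 CPM in P0, 523 and 514 in F1, 511 and 554 in F2, against 40.2 and 48.4 untreated in damt-1 worms.
Wild type ugt-1 levels were 103 and 111 CPM in P0, 117 and 117 in F1, 122 and 111 in F2, against 106 and 106 untreated.
Every treated damt-1 library stood far above all the other libraries. In wild type worms the P0 libraries lay on both sides of the untreated ones, and the F1 and F2 libraries lay slightly above them.
The rise in damt-1 worms was 3.54 ± 0.07 in P0, 3.54 ± 0.07 in F1 and 3.58 ± 0.07 in F2 (adjusted p at most 4.1e-21), and the wild type differences were 0.01 ± 0.07 in P0, 0.14 ± 0.07 in F1 and 0.14 ± 0.07 in F2 (adjusted p at least 0.12).
Subtracting the wild type response from the damt-1 response gave 3.53 ± 0.11 in P0, 3.40 ± 0.11 in F1 and 3.44 ± 0.11 in F2 on the log2 scale, the largest positive difference of the tested members in each generation (adjusted p at most 1.1e-17).
The adult collagens col-19, col-62 and col-7 were likewise low in untreated damt-1 libraries, while bli-1 and bli-2 of the same list were not. In damt-1 worms bli-1 had 1208 and 1182 CPM untreated, against 1056.5 to 1147 CPM treated. The remaining gene, rol-1, had 527 and 496 CPM untreated, against 548 to 613 CPM treated. The part of these genes in the ugt-1 difference was not tested.
In damt-1 against wild type worms ugt-1 was lower untreated (-1.25 ± 0.09, adjusted p = 6.3e-11) and higher in P0 (2.27 ± 0.05, adjusted p = 2.2e-19).

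The same calls were made for ugt-25.
Transcripts of ugt-25 had 49.2 and 43.0 CPM in P0, 40.5 and 41.6 in F1, 48.6 and 36.1 in F2, against 25.6 and 19.8 untreated in damt-1 worms.
Wild type ugt-25 levels were 91.0 and 84.4 CPM in P0, 89.9 and 100.3 in F1, 91.2 and 98.0 in F2, against 88.1 and 75.7 untreated.
Every damt-1 library, treated or not, was below every wild type library.
In damt-1 worms ugt-25 rose by 1.03 ± 0.16 in P0, 0.86 ± 0.16 in F1 and 0.92 ± 0.16 in F2, while damt-1 over wild type it was -1.85 ± 0.14 untreated (adjusted p = 5.4e-11).
The wild type differences for ugt-25 did not pass (adjusted p at least 0.061), and the responses differed between the genotypes by 0.93 ± 0.19 in P0, 0.64 ± 0.19 in F1 and 0.71 ± 0.19 in F2.
The F1 difference between the responses was lost without damt-1 untreated replicate 2 (adjusted p = 0.1), and the F2 one without damt-1 F2 replicate 1 (adjusted p = 0.083) or damt-1 untreated replicate 2 (0.062).
A neighbour of ugt-25, ugt-28, had 72.5 to 87.2 CPM in treated damt-1 libraries, against 32.9 and 45.6 CPM untreated, rises of 1.03 ± 0.12 in P0, 0.99 ± 0.12 in F1 and 1.13 ± 0.12 in F2.
In wild type worms ugt-28 passed in F1 (0.45 ± 0.13, adjusted p = 0.0065), a call lost without F1 replicate 2 (adjusted p = 0.12) or untreated replicate 1 (0.089).
An overlap of 26 bases between exons of ugt-25 and mlst-8, a TOR complex gene on the opposite strand, is annotated, and whether the counting used strand is not given, so reads of the pair may be mixed.

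The test called ugt-13 and ugt-36 as risen in all 3 wild type generations and in no damt-1 generation.
Transcripts of ugt-13 had 26.7 and 29.7 CPM in P0, 24.6 and 29.6 in F1, 23.7 and 25.7 in F2, against 30.2 and 31.2 untreated in damt-1 worms.
Wild type ugt-13 levels were 66.7 and 69.5 CPM in P0, 134 and 156 in F1, 154 and 151 in F2, against 16.8 and 13.9 untreated.
All treated wild type libraries were above the untreated ones, with F1 and F2 above P0, and the damt-1 libraries stayed between 23.7 and 31.2 CPM.
The log2 differences of ugt-13 were -0.12 ± 0.14 in P0, -0.18 ± 0.14 in F1 and -0.32 ± 0.14 in F2 in damt-1 worms (adjusted p at least 0.17), and 2.15 ± 0.13 in P0, 3.25 ± 0.11 in F1 and 3.32 ± 0.11 in F2 in wild type worms (adjusted p at most 1.1e-11).
Transcripts of ugt-36 had 1.75 and 0.531 CPM in P0, 0.548 and 3.67 in F1, 1.26 and 1.44 in F2, against 1.08 and 3.30 untreated in damt-1 worms.
Wild type ugt-36 levels were 4.14 and 15.3 CPM in P0, 28.7 and 31.3 in F1, 34.5 and 33.2 in F2, against 1.57 and 1.42 untreated.
The 2 wild type P0 libraries of ugt-36 were far apart, and those of F1 and F2 close together.
Wild type rises of ugt-36 were 2.70 ± 0.60 in P0, 4.30 ± 0.50 in F1 and 4.48 ± 0.50 in F2, of which the P0 rise was lost without P0 replicate 2 (adjusted p = 0.18) and those in F1 and F2 were kept under every left-out library.
The damt-1 differences of ugt-36 were -0.92 ± 0.87 in P0, -0.05 ± 0.77 in F1 and -0.71 ± 0.85 in F2 (adjusted p at least 0.6), with wide errors at these low counts.

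Some members rose in wild type worms and fell in some damt-1 generations, among them ugt-57 and ugt-63.
Transcripts of ugt-57 had 8.99 and 7.96 CPM in P0, 7.94 and 13.1 in F1, 7.31 and 8.38 in F2, against 13.2 and 16.7 untreated in damt-1 worms.
Wild type ugt-57 levels were 2.33 and 3.36 CPM in P0, 24.0 and 27.9 in F1, 27.1 and 28.8 in F2, against 3.15 and 3.78 untreated.
Wild type F1 and F2 libraries lay far above both the P0 and the untreated ones.
Wild type differences of ugt-57 were -0.28 ± 0.41 in P0, 2.89 ± 0.27 in F1 and 2.996 ± 0.27 in F2, and those of F1 and F2 passed (adjusted p at most 4.9e-09).
In damt-1 P0 ugt-57 fell (-0.82 ± 0.25, adjusted p = 0.03), a call lost without P0 replicate 1 (adjusted p = 0.088), P0 replicate 2 (0.16) or untreated replicate 2 (0.25).
In damt-1 F2 it fell too (-0.94 ± 0.26, adjusted p = 0.015), a call lost without F2 replicate 1 (adjusted p = 0.12) or untreated replicate 2 (0.17).
Transcripts of ugt-63 had 3.75 and 6.37 CPM in P0, 2.46 and 8.38 in F1, 10.8 and 6.64 in F2, against 14.3 and 10.6 untreated in damt-1 worms.
Wild type ugt-63 levels were 18.1 and 15.3 CPM in P0, 46.5 and 46.2 in F1, 39.5 and 41.4 in F2, against 8.13 and 8.97 untreated.
Wild type ugt-63 was higher in every F1 and F2 library than in any P0 or untreated one.
It rose in wild type worms by 0.96 ± 0.29 in P0, 2.43 ± 0.25 in F1 and 2.23 ± 0.25 in F2, and the P0 call was lost without P0 replicate 1 (adjusted p = 0.12), untreated replicate 1 (0.11) or untreated replicate 2 (0.067).
In damt-1 P0 ugt-63 fell (-1.30 ± 0.35), a call lost without P0 replicate 1 (adjusted p = 0.17) or untreated replicate 1 (0.13), and in damt-1 F1 (-1.18 ± 0.35), a call lost without F1 replicate 1 (adjusted p = 0.36) or untreated replicate 1 (0.19).

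In wild type untreated worms ugt-40 was close to 0, with 2 counts over both libraries.
Transcripts of ugt-40 had 0.749 and 0.265 CPM in P0, 2.19 and 1.05 in F1, 1.51 and 1.16 in F2, against 1.89 and 3.04 untreated in damt-1 worms.
Wild type ugt-40 levels were 3.62 and 5.51 CPM in P0, 12.4 and 13.6 in F1, 11.3 and 12.4 in F2, against 0.525 and 0 untreated.
Treated wild type libraries of ugt-40 were all above untreated ones, and the damt-1 libraries stayed at a few CPM.
From the counts, the ratio of treated to untreated wild type worms was 18.5 (exact 95% counting interval 4.78 to 159) in P0, 52.4 (exact 95% counting interval 14.2 to 438) in F1 and 47.8 (exact 95% counting interval 12.9 to 400.0) in F2.
The fall of ugt-40 in damt-1 P0 (-2.20 ± 0.73, adjusted p = 0.044) was lost without any 1 of the 4 libraries compared (adjusted p 0.053 to 0.26).
Listed only in the wild type F1 and F2 tables, ugt-18 had 12.4 and 13.8 CPM in F1, 14.8 and 8.44 in F2, against 0.525 and 0 untreated there.
With 2 counts untreated, its ratio was 52.9 (exact 95% counting interval 14.3 to 442) in F1 and 46.8 (exact 95% counting interval 12.6 to 392) in F2.

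In wild type F1 and F2 ugt-14 and ugt-58 rose as well.
For ugt-14 the rises over 1.05 and 2.36 CPM untreated were 2.51 ± 0.45 and 2.44 ± 0.46.
Transcripts of ugt-58 had 253 and 236 CPM in P0, 233 and 251 in F1, 240.1 and 247 in F2, against 263 and 259.8 untreated in damt-1 worms.
Wild type ugt-58 levels were 232 and 225 CPM in P0, 278 and 280.4 in F1, 286 and 282 in F2, against 218 and 208 untreated.
The wild type rises of ugt-58 were 0.39 ± 0.05 and 0.42 ± 0.05, while its damt-1 differences did not pass (adjusted p at least 0.14).
Wild type F1 was the only treated comparison with a call for ugt-24 (adjusted p = 0.039), lost without F1 replicate 1 (adjusted p = 0.056), F1 replicate 2 (0.26) or untreated replicate 1 (0.24), and for ugt-3 (adjusted p = 0.014), lost without F1 replicate 1 (adjusted p = 0.1), untreated replicate 1 (0.071) or untreated replicate 2 (0.084).

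**Figure D3:**
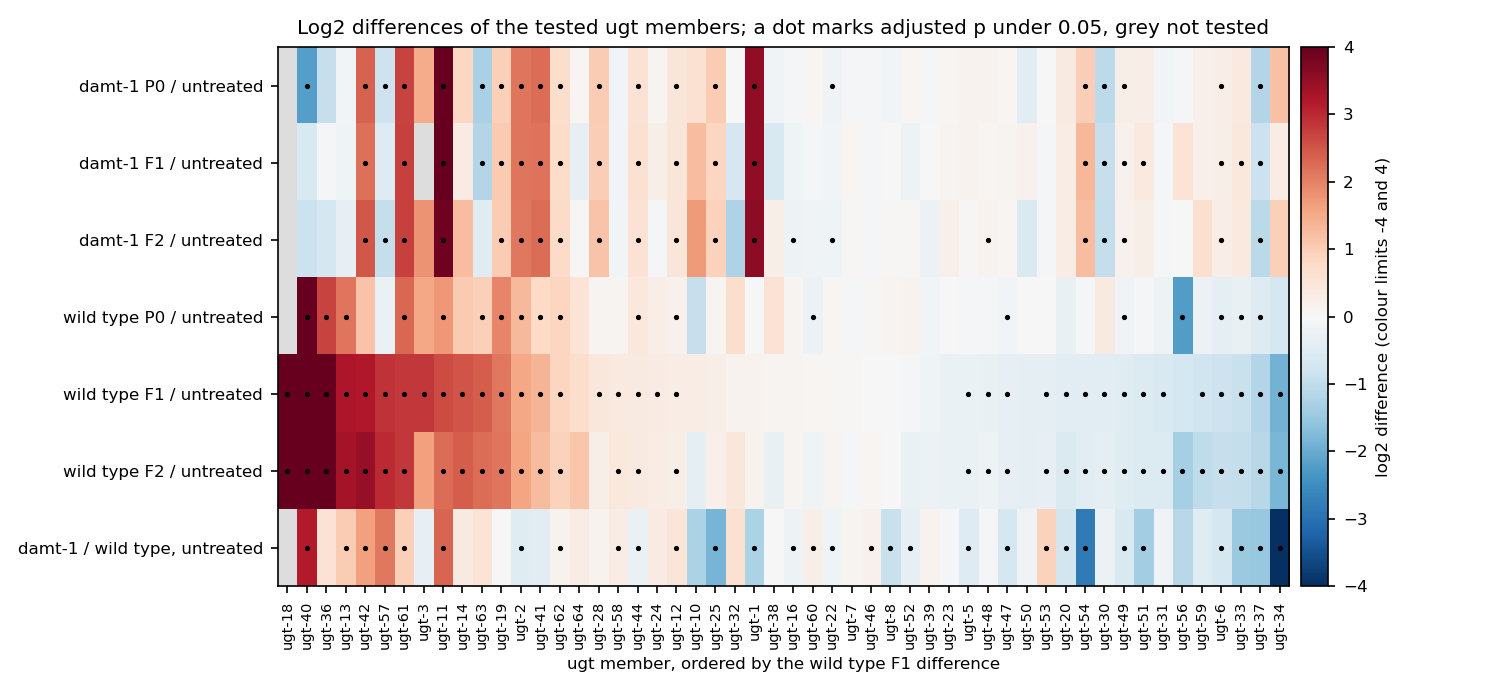
Log2 differences of the tested members: damt-1 P0, F1 and F2 over damt-1 untreated, wild type P0, F1 and F2 over wild type untreated, and damt-1 untreated over wild type untreated, with 1 column per member, colours from -4 to 4, a dot where the adjusted p is under 0.05 and grey where not tested. The columns of ugt-61 and ugt-2 are high in all 6 treated comparisons, that of ugt-1 in the 3 of damt-1, and that of ugt-13 in the 3 of wild type.

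Few members fell in both genotypes, and ugt-37 was called as fallen in all 6 comparisons.
Transcripts of ugt-37 had 8.24 and 9.29 CPM in P0, 12.3 and 9.16 in F1, 10.6 and 7.80 in F2, against 26.2 and 13.4 untreated in damt-1 worms.
Wild type ugt-37 levels were 41.6 and 38.1 CPM in P0, 25.5 and 25.1 in F1, 25.9 and 26.8 in F2, against 57.7 and 55.7 untreated.
The damt-1 untreated libraries were far from each other, and all treated libraries of each genotype lay below the untreated ones.
The falls were -1.16 ± 0.26 in P0, -0.87 ± 0.25 in F1 and -1.08 ± 0.26 in F2 in damt-1 worms and -0.51 ± 0.16 in P0, -1.16 ± 0.17 in F1 and -1.10 ± 0.17 in F2 in wild type worms.
The damt-1 falls of ugt-37 were lost in P0 without untreated replicate 1 (adjusted p = 0.17), in F1 without F1 replicate 2 (adjusted p = 0.2) or untreated replicate 1 (0.56) and in F2 without F2 replicate 2 (adjusted p = 0.065) or untreated replicate 1 (0.26), and the wild type P0 fall without any 1 of its 4 libraries (adjusted p 0.066 to 0.17).
Exons of ugt-37 and ugt-40 overlap on the same strand in the annotation, so reads from the shared stretch may have been left out or given to either, and the levels of both are uncertain to that extent.
Transcripts of ugt-30 had 23.7 and 17.2 CPM in P0, 20.8 and 23.8 in F1, 22.2 and 21.7 in F2, against 42.4 and 42.8 untreated in damt-1 worms.
Wild type ugt-30 levels were 65.2 and 62.6 CPM in P0, 39.4 and 34.7 in F1, 38.2 and 39.9 in F2, against 59.3 and 41.8 untreated.
All treated damt-1 libraries of ugt-30 were below the untreated ones.
Its damt-1 falls of -1.05 ± 0.17 in P0, -0.93 ± 0.16 in F1 and -0.96 ± 0.17 in F2 were the only falls in damt-1 worms kept under every left-out library.
Transcripts of ugt-30 in wild type worms fell by 0.44 in F1 and by 0.36 in F2, calls lost in F1 without F1 replicate 2 (adjusted p = 0.087) or untreated replicate 1 (0.38) and in F2 without F2 replicate 1 (adjusted p = 0.15), F2 replicate 2 (0.062) or untreated replicate 1 (0.67).

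For ugt-6 and ugt-49 the damt-1 calls were rises and the wild type calls falls, in all 3 generations.
Transcripts of ugt-6 had 274 and 266 CPM in P0, 265 and 263 in F1, 264 and 284 in F2, against 225 and 226 untreated in damt-1 worms.
Wild type ugt-6 levels were 275 and 287 CPM in P0, 215 and 204 in F1, 196 and 195 in F2, against 377 and 359 untreated.
No treated library of either genotype overlapped its untreated ones, and untreated wild type worms held the highest level of all groups.
The differences were 0.26 ± 0.05 in P0, 0.23 ± 0.05 in F1 and 0.28 ± 0.05 in F2 in damt-1 worms (adjusted p at most 0.0015) and -0.39 ± 0.04 in P0, -0.81 ± 0.04 in F1 and -0.91 ± 0.05 in F2 in wild type worms (adjusted p at most 2.3e-07).
Transcripts of ugt-49 had 227 and 228 CPM in P0, 219 and 217 in F1, 219.7 and 213 in F2, against 192 and 197 untreated in damt-1 worms.
Wild type ugt-49 levels were 270.2 and 267 CPM in P0, 215 and 209 in F1, 214 and 213 in F2, against 302 and 294 untreated.
Treated and untreated libraries of ugt-49 did not overlap in either genotype.
Its differences were 0.23 ± 0.04 in P0, 0.17 ± 0.04 in F1 and 0.16 ± 0.04 in F2 in damt-1 worms and -0.15 ± 0.04 in P0, -0.49 ± 0.04 in F1 and -0.48 ± 0.04 in F2 in wild type worms.
The calls of ugt-49 were lost in damt-1 F1 without F1 replicate 1 (adjusted p = 0.094), F1 replicate 2 (0.063) or untreated replicate 1 (0.13), in damt-1 F2 without F2 replicate 1 (adjusted p = 0.19), untreated replicate 1 (0.17) or untreated replicate 2 (0.056) and in wild type P0 without P0 replicate 2 (adjusted p = 0.055) or untreated replicate 1 (0.065).
Between the genotypes, damt-1 over wild type, the untreated differences were -0.70 ± 0.04 for ugt-6 and -0.62 ± 0.04 for ugt-49, and the F1 differences 0.34 ± 0.05 and 0.04 ± 0.04.

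Wild type falls beside a rise in at least 1 damt-1 generation were called for ugt-33, ugt-54, ugt-51 and ugt-48.
Transcripts of ugt-33 had 46.95 and 55.7 CPM in P0, 52.3 and 51.8 in F1, 53.4 and 48.0 in F2, against 32.1 and 45.6 untreated in damt-1 worms.
Wild type ugt-33 levels were 84.3 and 92.8 CPM in P0, 63.1 and 54.1 in F1, 58.7 and 54.1 in F2, against 111 and 106 untreated.
All treated wild type libraries of ugt-33 were below the untreated ones, and all treated damt-1 libraries were above the untreated damt-1 ones.
Its wild type falls were -0.29 ± 0.09 in P0, -0.89 ± 0.10 in F1 and -0.94 ± 0.10 in F2, of which the P0 fall was lost without P0 replicate 1 (adjusted p = 0.21), untreated replicate 1 (0.16) or untreated replicate 2 (0.056).
In damt-1 worms ugt-33 passed in F1 alone (0.41 ± 0.13, adjusted p = 0.04), a call lost without F1 replicate 1 (adjusted p = 0.14), F1 replicate 2 (0.13) or untreated replicate 1 (0.51).
Transcripts of ugt-54 had 16.5 and 20.96 CPM in P0, 20.0 and 27.5 in F1, 21.2 and 23.4 in F2, against 6.47 and 12.2 untreated in damt-1 worms.
Wild type ugt-54 levels were 56.1 and 71.9 CPM in P0, 46.5 and 52.5 in F1, 52.5 and 48.4 in F2, against 64.5 and 69.4 untreated.
All treated damt-1 libraries of ugt-54 were above the untreated ones.
It rose by 0.99 ± 0.26 in P0, 1.34 ± 0.24 in F1 and 1.24 ± 0.25 in F2 in damt-1 worms, where the P0 call was lost without P0 replicate 2 (adjusted p = 0.11) or untreated replicate 1 (0.2).
In wild type F1 ugt-54 fell by 0.43, a call lost without F1 replicate 1 (adjusted p = 0.097) or untreated replicate 2 (0.087), and in wild type F2 by 0.41, a call lost without F2 replicate 2 (adjusted p = 0.081) or untreated replicate 2 (0.12).
For ugt-51 the wild type levels fell by 0.56 and 0.53 in F1 and F2, and for ugt-48 by 0.29 and 0.20.
The damt-1 F1 rise of ugt-51 (0.38 ± 0.11) was lost without F1 replicate 1 (adjusted p = 0.22), untreated replicate 1 (0.16) or untreated replicate 2 (0.068), and the damt-1 F2 rise of ugt-48 (0.15 ± 0.05) without F2 replicate 1 (adjusted p = 0.34), untreated replicate 1 (0.31) or untreated replicate 2 (0.051).

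Falls that passed in wild type worms and not in damt-1 worms were found for ugt-47 in all 3 generations, for ugt-5, ugt-20, ugt-31, ugt-34, ugt-53 and ugt-59 in F1 and F2, for ugt-56 in P0 and F2 and for ugt-60 in P0.
Transcripts of ugt-47 had 276 and 266 CPM in P0, 272 and 276 in F1, 269 and 279 in F2, against 252 and 262 untreated in damt-1 worms.
Wild type ugt-47 levels were 398 and 381 CPM in P0, 349.8 and 326 in F1, 329.9 and 339 in F2, against 428 and 415 untreated.
These were small shifts at high levels.
The wild type falls of ugt-47 were -0.11 ± 0.04 in P0, -0.32 ± 0.04 in F1 and -0.33 ± 0.04 in F2, and the P0 fall was lost without any 1 of the 4 libraries (adjusted p 0.06 to 0.33).
Transcripts of ugt-34 had 1.75 and 4.25 CPM in P0, 0.274 and 2.88 in F1, 3.53 and 1.44 in F2, against 1.62 and 1.01 untreated in damt-1 worms.
Wild type ugt-34 levels were 16.3 and 20.9 CPM in P0, 5.69 and 10.6 in F1, 9.86 and 7.20 in F2, against 26.5 and 34.2 untreated.
Wild type ugt-34 was lower in each F1 and F2 library than in the untreated ones, and the damt-1 libraries held a few CPM at most.
Wild type differences of ugt-34 were -0.71 ± 0.30 in P0, -1.88 ± 0.33 in F1 and -1.83 ± 0.33 in F2, with adjusted p = 0.1 in P0 and at most 8.0e-05 in F1 and F2.
Transcripts of ugt-31 had 41.2 and 47.5 CPM in P0, 46.5 and 44.5 in F1, 51.9 and 40.7 in F2, against 44.5 and 51.2 untreated in damt-1 worms.
Wild type ugt-31 levels were 49.1 and 43.6 CPM in P0, 34.9 and 34.7 in F1, 35.5 and 36.7 in F2, against 57.2 and 49.8 untreated.
The wild type falls of ugt-31 were -0.62 ± 0.12 in F1 and -0.56 ± 0.12 in F2.
Transcripts of ugt-20 had 40.5 and 38.2 CPM in P0, 38.6 and 36.9 in F1, 35.0 and 41.3 in F2, against 34.0 and 27.9 untreated in damt-1 worms.
Wild type ugt-20 levels were 37.8 and 45.3 CPM in P0, 35.4 and 40.1 in F1, 35.5 and 33.2 in F2, against 49.6 and 52.1 untreated.
It fell by 0.57 in wild type F2, and its F1 fall of 0.43 was lost without F1 replicate 1 (adjusted p = 0.058).

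An overlap of 22 bases with sir-2.1 on the opposite strand is annotated for ugt-59.
Transcripts of ugt-59 had 14.7 and 14.9 CPM in P0, 12.05 and 17.8 in F1, 18.1 and 22.2 in F2, against 13.5 and 12.4 untreated in damt-1 worms.
Wild type ugt-59 levels were 15.5 and 14.9 CPM in P0, 8.42 and 12.2 in F1, 7.40 and 10.2 in F2, against 14.9 and 20.8 untreated.
The wild type falls of ugt-59 were -0.79 ± 0.24 in F1, lost without F1 replicate 1 (adjusted p = 0.13) or untreated replicate 2 (0.18), and -1.03 ± 0.25 in F2, lost without untreated replicate 2 (adjusted p = 0.056).
The wild type falls of ugt-53 were -0.38 ± 0.09 in F1, lost without untreated replicate 2 (adjusted p = 0.067), and -0.34 ± 0.10 in F2, lost without untreated replicate 2 (adjusted p = 0.14).
Transcripts of ugt-60 had 131 and 129 CPM in P0, 112 and 124 in F1, 116 and 109 in F2, against 122 and 125 untreated in damt-1 worms.
Wild type ugt-60 levels were 98.0 and 79.8 CPM in P0, 109 and 111 in F1, 98.1 and 87.6 in F2, against 99.1 and 111 untreated.
Its wild type P0 fall of 0.25 was lost without P0 replicate 2 (adjusted p = 0.52) or untreated replicate 2 (0.33).
The ugt-5 falls, -0.27 ± 0.05 in F1 and -0.27 ± 0.05 in F2, were kept under every left-out library.
The ugt-56 falls were lost in P0 without P0 replicate 1 (adjusted p = 0.083) and in F2 without any 1 of the 4 libraries (adjusted p 0.053 to 0.21).
Falls in damt-1 worms alone passed for ugt-22 in P0 and F2 and for ugt-16 in F2.
Transcripts of ugt-22 had 255 and 256 CPM in P0, 267 and 257 in F1, 249 and 252 in F2, against 290.3 and 276 untreated in damt-1 worms.
Wild type ugt-22 levels were 350.4 and 326 CPM in P0, 335 and 325 in F1, 339 and 344 in F2, against 326 and 312 untreated.
The damt-1 falls of ugt-22 were -0.15 ± 0.05 in P0, lost without P0 replicate 1 (adjusted p = 0.15), P0 replicate 2 (0.11) or untreated replicate 1 (0.28), and -0.17 ± 0.05 in F2, lost without F2 replicate 1 (adjusted p = 0.077) or untreated replicate 1 (0.16).
Transcripts of ugt-16 had 105 and 97.4 CPM in P0, 90.1 and 98.97 in F1, 94.5 and 89.3 in F2, against 105 and 107 untreated in damt-1 worms.
Wild type ugt-16 levels were 137 and 129.9 CPM in P0, 130.2 and 135 in F1, 133 and 132 in F2, against 122 and 122 untreated.
Its damt-1 F2 fall of 0.20 was lost without any 1 of the 4 libraries (adjusted p 0.075 to 0.29).

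Whether the response to antimycin A differed between the genotypes was tested as an interaction, the damt-1 response minus the wild type response.
In P0 it passed as positive for 16 of 51 tested members and as negative for 8, beside 10.5% and 11.5% of all transcripts.
In F1 it passed as positive for 19 and as negative for 10 of 50, beside 18.6% and 21.7% of all.
In F2 it passed as positive for 20 and as negative for 11 of 51, beside 18.6% and 21.5% of all.
The share of negative terms among members was near that of all transcripts in F1 and F2.
Taking the scaling factors from thinly covered transcripts alone made the F2 counts 24 positive and 7 negative.
Negative terms kept in all 3 generations under every left-out library were those of ugt-40, -6.24 ± 1.05 in P0, -6.15 ± 0.92 in F1 and -6.27 ± 0.94 in F2, of ugt-13, -2.28 ± 0.20 in P0, -3.42 ± 0.19 in F1 and -3.63 ± 0.19 in F2, of ugt-63, -2.26 ± 0.45 in P0, -3.61 ± 0.43 in F1 and -2.72 ± 0.41 in F2, and of ugt-19, -1.01 ± 0.10 in P0, -1.05 ± 0.10 in F1 and -1.12 ± 0.10 in F2.
The ugt-40 terms were fitted against 2 counts in wild type untreated worms, so their size is uncertain.
The ugt-57 terms of -3.40 ± 0.37 in F1 and -3.94 ± 0.38 in F2 were kept as well.
The terms of ugt-36 were -3.62 ± 1.08 in P0, -4.35 ± 1.01 in F1 and -5.18 ± 1.06 in F2, lost in P0 without wild type P0 replicate 2 (adjusted p = 0.099), damt-1 P0 replicate 2 (0.061) or damt-1 untreated replicate 2 (0.29), in F1 without damt-1 untreated replicate 2 (adjusted p = 0.11) and in F2 without damt-1 untreated replicate 2 (adjusted p = 0.058).
On the positive side, after ugt-1, ugt-41 gave 1.43 ± 0.21 in P0, ugt-54 gave 1.77 ± 0.28 and ugt-33 1.31 ± 0.17 in F1, and ugt-59 gave 1.66 ± 0.35 in F2, all kept.
The term of ugt-11 in P0, 2.44 ± 0.81 (adjusted p = 0.031), was lost without wild type P0 replicate 2 (adjusted p = 0.075), wild type untreated replicate 1 (0.32) or damt-1 untreated replicate 2 (0.069). The ugt-11 terms in F1 (1.45 ± 0.75, adjusted p = 0.13) and F2 (1.65 ± 0.76, adjusted p = 0.091) did not pass.
The term of ugt-34 in F2, 2.78 ± 0.81 (adjusted p = 0.0083), was lost without damt-1 F2 replicate 1 (adjusted p = 0.2).
Leaving out any 1 of 8 libraries kept 9 of 16, 11 of 19 and 15 of 20 positive terms in P0, F1 and F2, and 5 of 8, 6 of 10 and 8 of 11 negative ones.
Germ line markers and furrow collagens also had negative terms, 5 of 5 and 5 of 6 in P0, and 5 of 5 and 6 of 6 in F1 and in F2.
Adult cuticle genes had positive terms for 3, 4 and 4 of 6 and negative ones for 1 each time, among them col-19 with 8.40 ± 0.21 in P0, 9.21 ± 0.20 in F1 and 9.28 ± 0.20 in F2, fitted against 4 counts in damt-1 untreated worms.
Of 10 intestine markers 0, 4 and 4 had positive and 2 each time negative terms.
The part of all these markers in the members' terms was not tested.

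**Figure D4:**
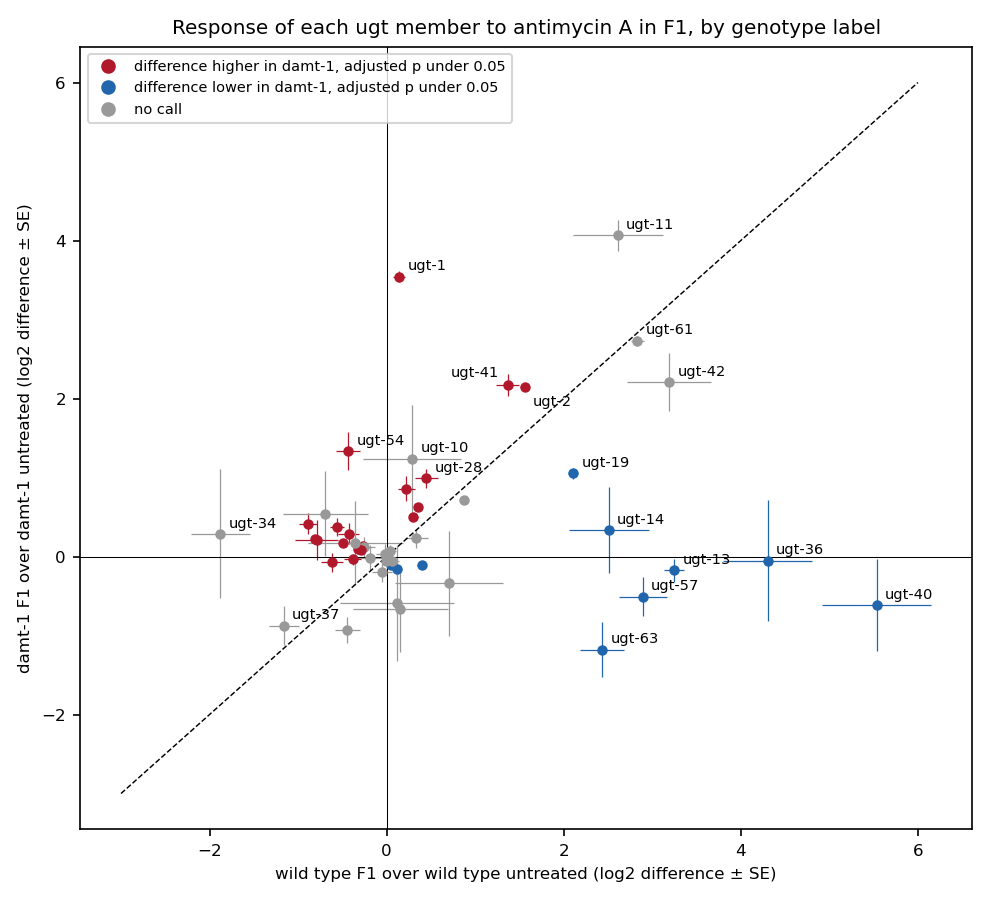
Response to antimycin A in F1 of each tested member: log2 difference of damt-1 F1 over untreated on the upright axis against that of wild type F1 over untreated on the level axis, with bars of 1 standard error, coloured by whether the difference between the responses passed an adjusted p of 0.05. The point of ugt-61 lies near the diagonal, that of ugt-1 far above it, and those of ugt-40, ugt-36 and ugt-13 far below it.

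Without antimycin A, 12 of 51 tested members were higher and 18 lower in damt-1 than in wild type worms, where 17.9% and 20.3% of all transcripts were.
With scaling factors from thinly covered transcripts the split was 14 higher and 14 lower.
Leaving out any 1 library kept 7 of the 12 and 15 of the 18.
Farthest apart was ugt-34, at 1.62 and 1.01 CPM in damt-1 untreated worms, against 26.5 and 34.2 CPM in wild type untreated worms (-4.51 ± 0.47, adjusted p = 3.1e-08).
Lower in damt-1 worms were also ugt-54 (-2.83 ± 0.20), ugt-25 (-1.85 ± 0.14), ugt-37 (-1.53 ± 0.18), ugt-33 (-1.47 ± 0.11) and ugt-51 (-1.39 ± 0.10), each kept under every left-out library.
Transcripts of ugt-51 had 50.2 and 43.8 CPM in P0, 53.9 and 48.4 in F1, 43.6 and 49.98 in F2, against 38.0 and 40.6 untreated in damt-1 worms.
Wild type ugt-51 levels were 92.6 and 101 CPM in P0, 72.3 and 68.0 in F1, 66.3 and 76.4 in F2, against 102 and 104.3 untreated.
No damt-1 library of ugt-51 came near the untreated wild type level.
On the other side ugt-11 was higher by 2.34 ± 0.54, ugt-57 by 2.10 ± 0.30, ugt-13 by 1.01 ± 0.16, ugt-61 by 0.94 ± 0.10, ugt-53 by 0.91 ± 0.08, ugt-12 by 0.49 ± 0.05 and ugt-58 by 0.30 ± 0.05, all kept too.
Transcripts of ugt-53 had 125 and 119.7 CPM in P0, 113.6 and 128 in F1, 121 and 119.3 in F2, against 124 and 124 untreated in damt-1 worms.
Wild type ugt-53 levels were 61.03 and 68.3 CPM in P0, 47.3 and 53.5 in F1, 53.0 and 51.4 in F2, against 60.8 and 70.5 untreated.
Every damt-1 library of ugt-53 was above every wild type library.
Higher as well was ugt-42 (1.63 ± 0.60), a call lost without wild type untreated replicate 1 (adjusted p = 0.22), damt-1 untreated replicate 1 (0.11) or damt-1 untreated replicate 2 (0.089).
The ratio of counts for ugt-40, 9.99 (exact 95% counting interval 2.41 to 88.5), rests on 2 counts in wild type untreated worms, and its call was lost without wild type untreated replicate 2 (adjusted p = 0.067).
In the same comparison 6 of 6 furrow collagens were higher in damt-1 worms, of 5 germ line markers 1 was higher and 3 lower, and of 6 adult cuticle genes 2 were higher and 4 lower, col-19 at -8.76 ± 0.17.
Their part in the members' differences was not tested.

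Under antimycin A the genotypes differed in similar numbers of members.
In P0, 12 of 51 tested members were higher and 19 lower in damt-1 than in wild type worms, beside 15.5% and 20.2% of all transcripts.
In F1, 13 and 19 of 50 were, beside 24.6% and 26.9% of all.
In F2, 14 and 18 of 51 were, beside 23.3% and 26% of all.
The share of members that were higher in F1 and F2 was near that of all transcripts.
The split depended on scaling: with factors from thinly covered transcripts it was 22 higher and 14 lower in F1 and 21 and 15 in F2, where the median of all transcripts was 0.25 instead of 0.01 in F1 and 0.24 instead of 0.02 in F2.
Highest over wild type was ugt-11, by 4.79 ± 0.21 in P0, 3.80 ± 0.18 in F1 and 3.99 ± 0.20 in F2, followed in F1 and F2 by ugt-1 with 2.15 ± 0.05 and 2.19 ± 0.05.
In P0 ugt-42 stood between them at 2.83 ± 0.38.
Lowest in F1 and F2 was ugt-36 (-3.79 ± 0.48 and -4.62 ± 0.52), and ugt-13, ugt-34, ugt-36, ugt-37, ugt-40, ugt-54 and ugt-63 were at differences under -1 on the log2 scale in all 3 generations.
The order of the genotypes turned round for ugt-57, which was higher in damt-1 P0 than in wild type P0 (1.56 ± 0.34, adjusted p = 8.5e-04) and lower in F1 (-1.30 ± 0.22) and F2 (-1.83 ± 0.24).
These differences of more than 0.5 kept their sign with the factors from thinly covered transcripts.
In each generation 6 of 6 furrow collagens were higher and 5 of 5 germ line markers lower in damt-1 worms, and 4, 5 and 5 of 6 adult cuticle genes were higher and 1, 0 and 0 lower in P0, F1 and F2, and their part in the differences was not tested.

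Between treated generations, members were called in wild type worms for F1 and for F2 over P0, and in no other comparison.
In wild type F1 13 of 51 tested members were higher and 12 lower than in P0, beside 12.2% and 10.2% of all transcripts.
In wild type F2 12 were higher and 14 lower than in P0, beside 12.1% and 10.4% of all.
Highest over P0 was ugt-57, by 3.17 ± 0.28 in F1 and 3.27 ± 0.28 in F2, then ugt-42 by 2.04 ± 0.40 in F1 and 2.33 ± 0.39 in F2.
Higher were also ugt-63 by 1.47 ± 0.22 in F1 and 1.28 ± 0.23 in F2, ugt-13 by 1.09 ± 0.08 and 1.16 ± 0.08, and ugt-61 by 0.53 ± 0.05 and 0.53 ± 0.05.
Lower in both were ugt-30, ugt-33, ugt-51 and ugt-6, the last at -0.43 ± 0.05 in F1 and -0.53 ± 0.05 in F2, and all the members named here were kept under every left-out library.
By DESeq2 the F2 against P0 comparison called 8 higher and 6 lower.
Wild type F2 against F1 gave 0 calls in 52 tested members with edgeR (1 at an unadjusted p under 0.05) and 0 with DESeq2.
In damt-1 worms 0 members were called by either tool in F1 against P0 (1 of 50 at an unadjusted p under 0.05 with edgeR), F2 against P0 (4 of 51) or F2 against F1 (1 of 50).
No transcript of the whole table was called by edgeR in these 4 comparisons (0% of all).
The germ line markers and furrow collagens were higher in wild type F1 and F2 than in P0 too (4 and 5 of 5 germ line markers, 6 of 6 furrow collagens in each), and of 6 adult cuticle genes 0 and 1 were higher and 4 and 3 lower, and their part in the members' differences was not tested.

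No treated comparison called 11 members, ugt-7, ugt-8, ugt-10, ugt-23, ugt-32, ugt-38, ugt-39, ugt-46, ugt-50, ugt-52 and ugt-64. The share of all transcripts without such a call was not counted. For ugt-23, ugt-39, ugt-46, ugt-50 and ugt-64, and for ugt-5 outside these 11, RefSeq holds several transcripts, of which 1 is listed here. What this does to their counts was not tested.
Among them ugt-46 had 223 to 229 CPM in treated damt-1 libraries, against 244 and 234 CPM untreated, and 205 to 226 CPM in treated wild type libraries, against 218 and 206 CPM untreated.
For ugt-8 treated damt-1 libraries had 28.2 to 34.0 CPM, against 31.3 and 30.7 CPM untreated, and damt-1 over wild type it was -0.89 ± 0.11 untreated (adjusted p = 4.1e-07).
Of these, ugt-10, ugt-32, ugt-38, ugt-50 and ugt-64 stayed under 10 CPM in all libraries, where a change of 2-fold was not detectable with their errors of 0.49 or more on the log2 scale.
In damt-1 worms ugt-3 had 1.499 and 0.796 CPM in P0 and 2.77 and 0 CPM in F2, against 0.540 and 0.253 CPM untreated.
Its 3 counts untreated give a ratio of 2.95 (exact 95% counting interval 0.737 to 17.0) in P0 and 3.78 (exact 95% counting interval 0.997 to 21.1) in F2.
Both intervals, which cover counting error only, include 1, so no change of ugt-3 was detectable there.
The untested ugt-15 and ugt-27 had at most 2.36 and 2.27 CPM in wild type libraries.
The annotation holds 67 ugt- genes in all, and the other 13 are not analysed here.

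Placed on the WBcel235 annotation of Ensembl, 35 of the 54 members lie on chromosome V, 8 on IV, 4 each on I and X, 2 on III and 1 on II.
With up to 5 gene steps between neighbours, 25 members fall into 7 runs and 29 stand alone, and coordinates are not given because the authors' build was ce10.
Neighbours differed in their calls within several runs.
The run of ugt-8, ugt-10, ugt-11, ugt-12, ugt-13 and ugt-14 on chromosome V had 2 rises and 0 falls in damt-1 F1, with log2 differences between -0.18 for ugt-13 and 4.07 for ugt-11.
Within that run 4 members rose and 0 fell in wild type F1, up to 3.25 for ugt-13.
The run of ugt-36 to ugt-41 on chromosome V, which holds ugt-37 and ugt-40, had 1 rise and 1 fall in damt-1 F1 and 3 rises and 1 fall in wild type F1. Of all transcripts 7.69% were higher and 5.53% lower in damt-1 F1, and 26.2% and 20.7% in wild type F1.
The pair ugt-1 and ugt-2 on chromosome V was called as risen in each damt-1 generation, while in wild type worms ugt-2 alone passed.
On chromosome I ugt-25 and ugt-28 were both called as risen in each damt-1 generation.
The pair ugt-19 and ugt-20 on chromosome IV split in wild type F1 and F2, where ugt-19 rose and ugt-20 fell.
For 14 members an exon overlaps another annotated gene, among them ugt-22 by 384 bases (a chemoreceptor gene on the opposite strand and small piRNA genes) and ugt-50 by 340 bases (nhr-26, opposite strand). Counts are uncertain for overlaps on the opposite strand where strand was not used. For overlaps on the same strand, such as that of ugt-37 and ugt-40, they are uncertain in either case.

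Of 10 tested genes that supply or use UDP-sugars outside the family, 1 was called in damt-1 F1, where 7.69% of all transcripts were higher and 5.53% lower, and 0 in damt-1 P0 and F2.
Of the supply list, sqv-4, a UDP-glucose dehydrogenase that makes UDP-glucuronic acid, and D1005.2, a predicted UTP-glucose-1-phosphate uridylyltransferase, passed the filter.
In damt-1 F1 they had log2 differences of -0.02 ± 0.04 for sqv-4 and -0.28 ± 0.14 for D1005.2, and neither passed in any damt-1 generation, while in wild type F1 sqv-4 fell (-0.26 ± 0.04) and D1005.2 rose (1.28 ± 0.18).
Of 8 tested users and carriers 1 rose in damt-1 F1 and 0 fell, and 1 rose and 4 fell in wild type F1. There 26.2% of all transcripts were higher and 20.7% lower.
The wild type F1 falls were those of sqv-7, a UDP-sugar transporter of the Golgi (-0.49 ± 0.06), the ceramide glucosyltransferases cgt-1 (-0.51 ± 0.13) and cgt-2 (-0.62 ± 0.09) and the glycoprotein glucosyltransferase uggt-1 (-0.22 ± 0.03), while uggt-2 rose (0.64 ± 0.16).
Among regulators, nhr-45, the receptor tied to ugt-61, rose in damt-1 P0 (0.29 ± 0.06) and F2 (0.27 ± 0.06) and did not pass in damt-1 F1 (adjusted p = 0.0504).
It fell in wild type P0 (-0.21 ± 0.06), F1 (-0.44 ± 0.06) and F2 (-0.58 ± 0.06), while ugt-61 rose in all 6. These are RNA levels, and the part of nhr-45 in the ugt-61 rises was not tested.
The list held 16 regulators, many of them absent from the count tables, among them nhr-8, nhr-49, nhr-86, ahr-1 and mdt-15. Over the 7 tested regulator transcripts, 1, 0 and 1 rose and 0 fell in damt-1 P0, F1 and F2. In wild type P0, F1 and F2, 0 rose and 1, 4 and 3 fell. Of all transcripts 8.41%, 7.69% and 7.9% were higher and 5.68%, 5.53% and 5.84% lower in damt-1 P0, F1 and F2. In the wild type generations 13%, 26.2% and 25.9% of all were higher and 8.14%, 20.7% and 21% lower.

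The export pumps of the pgp- and mrp- families, which can carry conjugates out of cells, summed to 4577 to 4710.4 CPM in treated damt-1 worms, against 3218 to 3358 CPM untreated, and to 3720.4 to 3802 CPM in treated wild type worms, against 3306 to 3339.7 CPM untreated.
Of 21 tested pump transcripts 7, 5 and 6 rose and 3 fell each time in damt-1 P0, F1 and F2, and 8 rose each time and 2, 4 and 3 fell in wild type P0, F1 and F2. Of all transcripts 8.41%, 7.69% and 7.9% were higher and 5.68%, 5.53% and 5.84% lower in damt-1 P0, F1 and F2. In the wild type generations 13%, 26.2% and 25.9% of all were higher and 8.14%, 20.7% and 21% lower.
In both genotypes pgp-9 rose, by 1.88 ± 0.05 in damt-1 F1 and 0.70 ± 0.05 in wild type F1.
In wild type F1 pgp-10 rose (2.71 ± 0.15), pgp-11 rose (1.59 ± 0.12) and pgp-13 fell (-0.88 ± 0.05).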

How the data were processed

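RNA-seq counts of 16 whole-worm libraries, 2 in each of 8 groups, were read from 6 tables deposited by the authors. The deposited values are raw counts per RefSeq transcript, as whole numbers, and each table holds 2 treated and 2 untreated libraries. The submitters' processing notes name the build ce10 and the tools HTSeq 0.9.1, HISAT2 2.0.5, DESeq2 1.20.0, Trimmomatic 0.35, R 3.5.0 and SAMtools 1.3.1, with no role or order. Strand handling and duplicate removal are not given in the sources used here. A table lists a transcript from a sum of 11 counts upward. The untreated counts of a genotype were the same in its 3 tables (0 differences), so they form 1 group. A further 24 per-sample columns were not used.

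Groups came from the sample titles. Counts were fitted over all 16 libraries in R 4.3.3 with edgeR 4.0.16 (TMM scaling, 12592 transcripts left by filterByExpr at a count minimum of 10, 1 mean per group, quasi-likelihood test with robust fitting), and p-values were adjusted over all transcripts tested in a comparison. Totals of 3541390 to 4365451 counts limit the precision of low members. Exact 95% counting intervals are given where a group held 3 counts or fewer. Spliced lengths, neighbours and exon overlaps came from the Ensembl WBcel235 annotation, for names and lengths only. A spliced length joins all annotated exons of a gene, so it can exceed that of the counted transcript and make its level per length too low. Alternatives were DESeq2 1.42.0, RLE factors, library size only, TMM factors from transcripts under 0.2 counts per nucleotide, no filter, at least 10 CPM in 2 libraries, a fit to the groups compared alone, a replicate block, a log2 limit of 1 and each library left out. The code was tested on simulated data. Python 3.11.15, pandas 2.3.3, numpy 2.4.6 and matplotlib 3.10.9 were used for tables and plots.

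The members, gene lists and rules were chosen with earlier results of these data known. Values in every library are given for the 6 largest rises and 6 largest falls (adjusted p under 0.05, at least 10 CPM in the higher group, no overlap of the libraries) in each treated comparison and between the untreated genotypes, the 3 largest interaction terms per direction and generation, and the 5 highest members per length, 33 members in all. Other lists are described by counts and at most 4 members by smallest adjusted p in wild type F1. The UDP-sugar users and carriers depart from this limit, since all those called in wild type F1 are named. Exceptions, chosen after their values were seen, are nhr-45, col-19, col-62, col-7 and the values of members outside the rule, given in part.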

Additional observations from a re-analysis of the deposited data

Results flagged for a closer look

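The 3 largest differences in each direction between the damt-1 and the wild type response to antimycin A, taken per generation among members with at least 10 CPM in some group, were picked out because the interaction test passed for them. That gave 18 results over 12 members, each a log2 of the damt-1 response over the wild type response.

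A positive term puts the signed damt-1 difference above the wild type one, and does not by itself mean a larger change in damt-1 worms. Among the positive terms ugt-1 led in every generation, with 3.53 in P0, 3.40 in F1 and 3.44 in F2. In P0 it was followed by ugt-11 at 2.44 and ugt-41 at 1.43. In F1 the next were ugt-54 at 1.77 and ugt-33 at 1.31, and in F2 they were ugt-34 at 2.78 and ugt-59 at 1.66. The wild type response in that generation was a fall for ugt-54, ugt-33, ugt-34 and ugt-59.

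Among the negative terms ugt-40 had -6.24 in P0, -6.15 in F1 and -6.27 in F2. These are fitted values against 2 counts in wild type untreated worms, and the exact counting intervals given with the wild type ratios are wide. For ugt-36 the terms were -3.62 in P0, -4.35 in F1 and -5.18 in F2, at low counts in damt-1 worms. The others were ugt-13 at -2.28 in P0, ugt-63 at -3.61 in F1 and ugt-57 at -3.94 in F2. Groups of 2 libraries were too small to look for outlying libraries.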

How the results depend on the processing

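Over 409 called differences of all tested members and 5233 values under alternatives, 4793 kept direction and call, 438 kept the direction and lost the call, and 2 reversed. Calls were lost for 82 differences with DESeq2, 36 with TMM factors from transcripts under 0.2 counts per nucleotide, 5 with RLE factors, 8 with library size only, 2 without a filter, 3 with the filter of 10 CPM, 11 with only the groups compared and 4 with the replicate block. Both reversals came with the factors from thin transcripts, where damt-1 F2 over wild type F2 was 0.0389 for ugt-5 (instead of -0.18) and damt-1 F1 over wild type F1 was 0.0297 for ugt-58 (instead of -0.21), and the cause was not tested.

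Of 259 alternative values for the 19 counts of members called, 242 stayed within 1.5 times. Requiring a log2 difference of at least 1 left 12, 9 and 10 members in damt-1 P0, F1 and F2, and 8, 16 and 17 in wild type P0, F1 and F2, by construction. It left 12 members between the untreated genotypes, 17, 14 and 15 between the genotypes in P0, F1 and F2, 8 each in wild type F1 and F2 over P0, and 10, 11 and 12 interactions. DESeq2 called 14 members in wild type F2 over P0, against 26 with edgeR, and the cause was not tested. Leaving out 1 library moved the wild type P0 count of 19 to between 12 and 14, with fewer libraries by construction. Replicate numbers did not pair libraries (deviations from the group means had r from -0.0583 to 0.0358 over 28 pairs of groups). With the replicate block the counts were 20, 20 and 20 in damt-1 P0, F1 and F2 and 19, 35 and 33 in wild type P0, F1 and F2, and it moved no count by over 1.5 times. Members under 10 CPM were limited by depth.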
